A study of Mus musculus with 2 samples.

Results

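The cells described here are tumor-infiltrating monocytes that hold transcripts of Ace, which encodes the angiotensin-converting enzyme, or of Adgre4, which encodes an adhesion G protein-coupled receptor of the F4/80 family. They were chosen by their measured counts: a cell had to hold 1 or more unique molecular identifier (UMI, 1 counted transcript molecule) of Ace or Adgre4, a UMI of at least 3 of the 8 genes Ace, Adgre4, Cd177, Hpgd, Ldlrad3, Nxpe4, Ifitm6 and Treml4, and no UMI of Cd3e, Ncr1, Cxcr2, Xcr1 or Cd209a. In all, 391 of 9798 filtered cells met this rule, 127 of 5292 in the control library and 264 of 4506 in the NK-depleted library. Both libraries hold CD45+ cells sorted from melanomas of C57BL/6 hosts aged 8 weeks at day 4 after tumor cell injection. Per the methods, a small share of parental melanoma cells was spiked into each sample. No step here removed such cells by type, so the filtered cells can include them. No depleting antibody is given for the control hosts. The NK-depleted hosts received 200 µg of anti-NK1.1 (clone PK136) and 30 µg of anti-asialo GM1 per mouse on days 0 and 2. The titles of both libraries carry KO, which the labels do not spell out. The study works with a Braf-driven melanoma line and with cells of that line that lack the cyclooxygenase genes Ptgs1 and Ptgs2. It describes its single-cell data, with the same 11651 called cells, as coming from tumors of the deficient cells. The genotype label of both libraries instead calls the tumor cells wildtype. Cells were sorted from the pooled tumors of a group and made into 1 library, so a test between groups was not possible and no p-value is given.

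Monocytes circulate in classical and nonclassical forms. Mouse classical monocytes carry Ly6C and the chemokine receptor CCR2, and enter inflamed tissue, where they can become macrophages or antigen-presenting cells. Nonclassical monocytes patrol the vessel wall, carry little Ly6C, use CX3CR1 and the integrin LFA-1 (its alpha chain is encoded by Itgal), and depend on the nuclear receptor NR4A1. Ace, Adgre4 and Treml4 are known from the nonclassical form, whereas Cd177, Ifitm6 and Ly6c2 are better known from other myeloid cells.

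The filtered cells held a median of 4170 UMIs in the control library and 4893 in the NK-depleted library, and the members held 4165 and 4866.5, with 1761 and 1967 genes and 3.43% and 4.01% mitochondrial UMIs. Summed over the members, 576300 and 1384244 UMIs stood behind the values of the control and NK-depleted libraries. Ncr1, a receptor of NK cells, had a UMI in 301 of 5292 control cells (5.69%) and in 0 of 4506 NK-depleted cells, where a count of 0 allows up to 0.0666%. Doublets were not removed. The libraries shared 5 cell barcodes after filtering, none of them between members of both libraries, although the barcodes of 2 members occurred in the other library. Levels are given as CPM, the counts per 1000000 of the UMIs summed over the cells of a set, ratios as control over NK-depleted, and intervals are 95% intervals (exact Poisson for a level, exact binomial for a share or a ratio). They cover counting error only and not the spread between mice. A ratio is called past the fold where it exceeds 1.5 or lies under its inverse and its interval leaves out 1, among genes with at least 20 UMIs in the members of both libraries together.

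The genes of the rule were present at a few molecules per cell, which is a description of the choice and not a result. Ace was detected in 80 of 127 control members (63%) and 142 of 264 NK-depleted members (53.8%), with at most 9 and 11 UMIs in a cell. In T cells, which should lack it, Ace was seen in 0 of 146 control cells (a count of 0 allows up to 2.05%) and in 1 of 112 NK-depleted cells (0.893%), at median depths of 2329 and 2643 UMIs. Adgre4 was detected in 98 control members (77.2%) and 226 NK-depleted members (85.6%), against 1 and 3 T cells (0.685% and 2.68%). Both genes occurred together in 51 and 104 members, Ace alone in 29 and 38, and Adgre4 alone in 47 and 122. Ifitm6, an interferon-induced transmembrane family member, was the most widespread of the 8, in 87.4% and 87.9% of members. Nxpe4, Ldlrad3, Cd177, Hpgd and Treml4 were each detected in 23.1% to 40.9% of members. The rule genes were not confined to the set. Ly6c2 monocytes outside the set (defined below) had Ifitm6 in 50.1% and 56.8% of cells and each of these 5 genes in 1.92% to 22.1%. C1q macrophages (also defined below) had Ace in 0.839% and 1.02% and Adgre4 in 2.26% and 8.23%. No member held all 8 genes, and 60 control and 121 NK-depleted members held exactly 3.

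The threshold of 3 genes lay within a gradient. Cells with exactly 2 of the 8 genes, 68 in the control and 192 in the NK-depleted library, had Itgal at 131 and 151 CPM, whereas members with exactly 3 had 402 and 397 CPM. For Plac8, a monocyte-enriched gene, the cells just outside had 1622 and 1375 CPM and those just inside 3419 and 2169 CPM. C1qa, a complement gene of tissue macrophages, ran the other way, at 799 and 880 CPM just outside and 416 and 471 CPM just inside. The 5 genes that had to be at 0 removed 11 control and 24 NK-depleted cells, mostly through Cd209a (8 and 14 cells), a gene of monocyte-derived dendritic cells. Of the cells left out for too many UMIs or genes, 1 of 212 control and 9 of 353 NK-depleted cells would have met the rule.

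The markers went with the label of monocytes, although several of them were not particular to monocytes. Lyz2, the lysozyme of myeloid cells, was at 9726 and 9378 CPM, Ccr2 was detected in 80.3% of control and 89% of NK-depleted members, Nr4a1 in 89.8% and 94.3%, Itgal in 83.5% and 81.4%, and Cx3cr1 in 66.9% and 75%. C1q macrophages (nonmembers with UMIs of C1qa, C1qb and C1qc) had Ccr2 in 87.5% and 92.1% and Nr4a1 in 56.3% and 75.6%. They had Itgal in 20.5% and 19.6% and Cx3cr1 in 41.9% and 39.5%. Neutrophils had Nr4a1 in 81.6% and 89.1%. Ly6c2, which classical monocytes carry, was detected in 69.3% (60.5% to 77.2%) of control and 75.8% (70.1% to 80.8%) of NK-depleted members, so most of the cells were not Ly6c2-negative. It was detected in 7.66% and 8.47% of neutrophils, 18.5% and 8.93% of T cells, and 22.1% and 35.7% of C1q macrophages. Spn, which encodes CD43 of nonclassical monocytes, was detected in 41.7% (33% to 50.8%) and 25% (19.9% to 30.7%), and T cells, which also use CD43, had it in 44.5% and 33.9%. Defining genes of other cell types were at or near 0 over all members: the 5 T cell genes summed to 0 and 4.33 CPM, the 8 NK cell genes to 8.68 and 3.61 CPM, the 8 dendritic cell genes to 5.21 and 10.8 CPM, and the mast cell and platelet genes to 0 in both libraries. The 5 B cell genes (13.9 and 13 CPM) were present through Cd79b alone and the 6 melanoma genes (26 and 24.6 CPM) almost wholly through Mitf, which myeloid cells also use. The 8 neutrophil genes summed to 200 and 136 CPM, mainly through Csf3r, which monocytes also express. Macrophage genes were not absent: 24 of 127 control and 59 of 264 NK-depleted members held a UMI of C1qa, C1qb or C1qc.

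The monocytes made up a smaller share of the control library than of the NK-depleted library. They were 2.40% (2% to 2.85%) of the control cells and 5.86% (5.19% to 6.58%) of the NK-depleted cells, a ratio of 0.410 (0.329 to 0.508). Ly6c2 monocytes outside the set, defined by UMIs of Ly6c2 and Ccr2 with none of Ace, Adgre4 or C1qa, were also fewer in the control library, 8.86% against 14% of cells, at a ratio of 0.635 (0.562 to 0.717). C1q macrophages, defined by UMIs of C1qa, C1qb and C1qc, were more frequent in the control library, 29.3% against 24%, at 1.22 (1.13 to 1.32). Since NK cells were themselves removed, the share was also taken of cells without Ncr1, where the ratio was 0.434 (0.349 to 0.539), and of these 3 myeloid sets together, where it was 0.443 (0.355 to 0.549). The rule depends on depth, and the NK-depleted cells were deeper. With every cell thinned to 2000 UMIs, which left out 1208 control and 939 NK-depleted cells, 56 of 4084 control cells (1.37%) and 101 of 3567 NK-depleted cells (2.83%) met the rule, a ratio of 0.484 (0.343 to 0.678). The rule genes, taken as a list, were also lower in control cells outside the set. Their summed levels were 389 and 506 CPM in Ly6c2 monocytes and 80.2 and 137 CPM in C1q macrophages. The part of such levels in the member share was not tested. Shares of a library add up to the whole, so a lower share cannot be told apart from a gain in other cells.

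**Figure D1:**
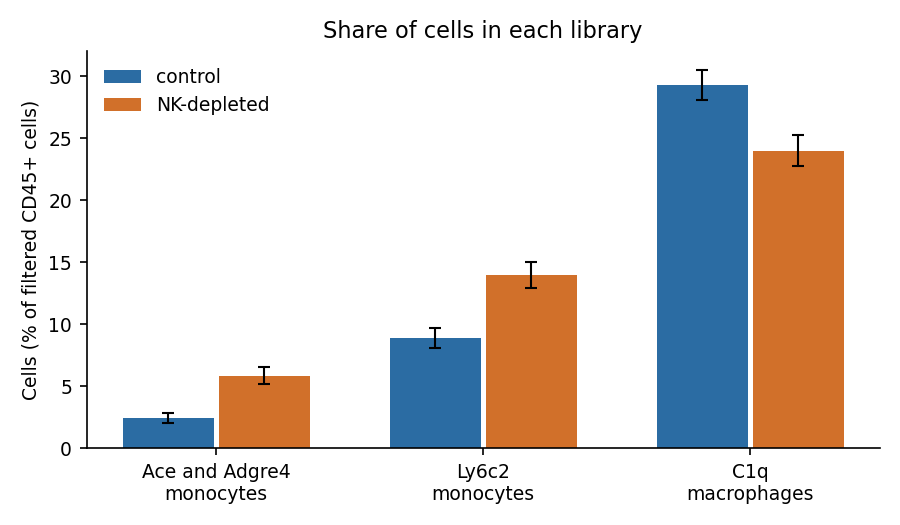
Bars give the percentage of filtered cells (y axis, spiked-in melanoma cells not taken out) in each library that were Ace and Adgre4 monocytes, Ly6c2 monocytes or C1q macrophages (x axis), blue for control and orange for NK-depleted, with exact 95% binomial intervals from counting cells of 1 library per group. The monocytes of the set were at 2.40% and 5.86%, and C1q macrophages had the higher bar in the control library.

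Set beside the Ly6c2 monocytes of the same library, the cells had more transcript of genes of the nonclassical form. These values describe how the sets were cut and are no test, since the Ly6c2 monocytes were defined without Ace, Adgre4 and C1qa and with Ly6c2 and Ccr2. Among 8136 genes with at least 20 UMIs in each comparison, 1.87% were higher past the fold in both libraries and 1.4% were lower. Of the 18 nonclassical monocyte genes, 10 were higher in both libraries and none lower, with a median of 2.22-fold in the control and 1.87-fold in the NK-depleted library, beside 0.980-fold over all genes in both. Of 15 classical monocyte genes, none was higher and 1 was lower in both libraries. Their medians were 1.29-fold in the control and 0.890-fold in the NK-depleted library, so the classical genes as a list were not lower in both. Itgal was at 640 CPM against 149 CPM in control cells (4.30-fold, 3.70 to 5.00) and at 639 CPM against 189 CPM in NK-depleted cells (3.38-fold, 3.04 to 3.75). Spn was 6.68-fold higher (4.76 to 9.45) and 4.24-fold higher (3.15 to 5.73). Ear2, a ribonuclease of the eosinophil-associated family, was 2.64-fold (2.13 to 3.26) and 4.70-fold (3.77 to 5.87) higher. Gngt2, a G protein gamma subunit, was 3.16-fold and 3.89-fold higher, and Pou2f2, which encodes the transcription factor OCT2, 3.13-fold and 2.03-fold. Cx3cr1, the fractalkine receptor, was 2.32-fold and 1.72-fold higher, and Nr4a1 2.37-fold and 1.47-fold. Fcgr4, the activating Fc receptor that marks circulating nonclassical monocytes, was at 1.16-fold (0.883 to 1.52) and 1.09-fold (0.894 to 1.32), with intervals that hold 1. S1pr5, a sphingosine phosphate receptor that guides the egress of nonclassical monocytes, was 8.59-fold (3.30 to 24.9) and 4.08-fold (1.60 to 11.2) higher.

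Part of the macrophage and chemokine genes were lower in the cells than in Ly6c2 monocytes. Of 14 macrophage genes with enough counts, 7 were lower in both libraries and 3 higher. The 3 were C1qa, C1qb and C1qc, and the Ly6c2 monocytes were defined as cells without a UMI of C1qa. Of 22 chemokine and cytokine genes, 4 were lower in both libraries and none higher. Mrc1, the mannose receptor, was at 0.405-fold and 0.477-fold, and Spp1, which encodes osteopontin, at 0.214-fold (0.147 to 0.302) and 0.321-fold (0.267 to 0.384). The chemokines Ccl7 and Ccl12, ligands of CCR2, were at 0.374-fold and 0.117-fold in the control and 0.312-fold and 0.309-fold in the NK-depleted library. Ccl3 and Ccl4, ligands of inflammatory chemokine receptors, were at 1.10-fold (0.929 to 1.30) and 0.756-fold in the control and 1.05-fold (0.939 to 1.17) and 0.846-fold in the NK-depleted library. The chemokine receptor Ccr1 was at 0.402-fold in the control and 0.414-fold in the NK-depleted library. Ly6a, an interferon-inducible surface protein, was at 0.308-fold and 0.402-fold, and Cxcl10 at 0.390-fold and 0.443-fold. The 48 type I interferon genes had medians of 0.731-fold and 0.820-fold, with 5 lower in both libraries and none higher.

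**Figure D2:**
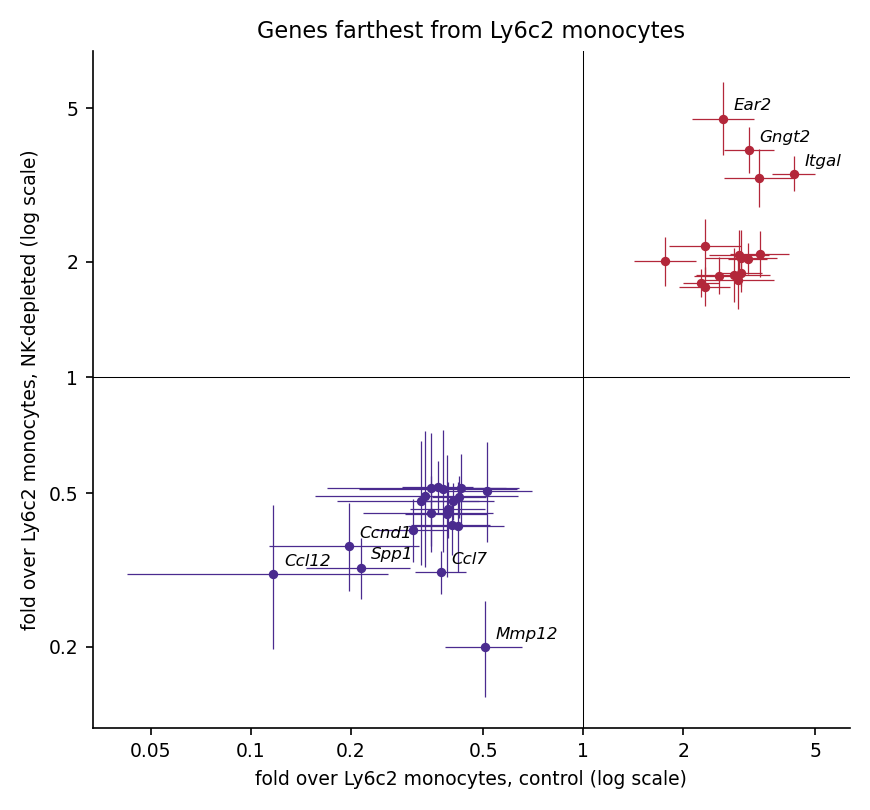
Each point is a gene among those farthest from 1, with its fold in Ace and Adgre4 monocytes over Ly6c2 monocytes in the control library (x axis) and in the NK-depleted library (y axis), both on log scales, with 95% counting intervals. Red points such as Itgal (4.30 and 3.38) lay above 1 in both libraries and purple points such as Spp1 (0.214 and 0.321) below 1, with genes at 0 in Ly6c2 monocytes and C1qb left out.

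The distance to C1q macrophages was wider. Of 9957 genes, 6.16% were higher past the fold in both libraries and 6.94% lower. All 15 macrophage genes were lower, with medians of 0.122-fold and 0.131-fold, 3 of them used to define the comparison cells, and 11 of 15 classical monocyte genes were higher, with a median of 3.70-fold in the control library. Itgal was 12.9-fold (11.2 to 14.8) and 15.2-fold (13.3 to 17.3) higher. Hp, which encodes haptoglobin, was 30.3-fold and 13.4-fold higher, and Gsr, glutathione reductase, 12.5-fold and 14.3-fold. Pf4, a chemokine of platelets and tissue macrophages, was at 0.0612-fold and 0.0655-fold, Arg1, which consumes arginine, at 0.0448-fold and 0.106-fold, and Folr2, a folate receptor of tissue macrophages, at 0.100-fold and 0.0458-fold. Of 17 hypoxia genes 13 were lower, as were 13 of 15 glycolysis genes, and none of either list was higher. Of the 15 cell cycle genes 9 were lower and none higher, at medians of 0.389-fold and 0.230-fold.

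The cells varied along Ly6c2. Cells at 0 UMIs of Ly6c2 numbered 39 of 127 in the control library (30.7%) and 64 of 264 in the NK-depleted library (24.2%), and those with 5 or more numbered 48 (37.8%) and 113 (42.8%). Cells at 0 were shallower, with medians of 3246 and 3869.5 UMIs against 4805 and 5248, and the part of depth in the split was not tested. Several genes of the nonclassical form were higher at 0 than at 5 or more. Of 16 nonclassical genes with enough counts, 9 were lower past the fold at 5 or more in both libraries and none higher, against 2.16% of all 3235 genes lower. Spn was at 388 CPM in the control and 175 CPM in the NK-depleted library, against 76.8 and 47.6 CPM at 5 or more, a fold of 0.198 (0.112 to 0.336) and 0.272 (0.168 to 0.434). Ear2 was at 711 and 395 CPM at 0 and at 96 and 114 CPM at 5 or more. Itgal, Pou2f2, Fcgr4, Treml4 and Ace had folds of 0.417, 0.437, 0.252, 0.141 and 0.298 in the control and 0.617, 0.423, 0.356, 0.361 and 0.329 in the NK-depleted library, each with an interval below 1. Klf2, a Krüppel-like transcription factor gene, had folds of 1.17 (0.906 to 1.53) and 1.04 (0.890 to 1.21), and the fractalkine receptor gene Cx3cr1 had 0.569 (0.397 to 0.815) and 0.900 (0.720 to 1.13). Adgre4 was at 0.356 (0.235 to 0.535) and 0.512 (0.403 to 0.651). Ace, Adgre4 and Treml4 belong to the rule, but Ly6c2, Spn, Ear2, Itgal and Pou2f2 do not. The split used Ly6c2, and rule genes went both ways along it (Cd177 below), so these folds describe the chosen cells and are no test.

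Several genes of the classical form were higher at 5 or more UMIs of Ly6c2 than at 0. Of 14 classical genes with enough counts, Ly6c2 not among them, 6 were higher past the fold in both libraries and none lower, against 1.79% of all genes higher. Vcan, which encodes versican, was 12.8-fold (3.36 to 109) and 4.81-fold (2.59 to 9.89) higher at 5 or more UMIs of Ly6c2 than at 0. Ccr2 was 2.20-fold and 1.49-fold higher, Chil3, a chitinase-like secreted protein, 4.36-fold and 2.43-fold, and Mgst1, a glutathione transferase, 1.85-fold and 5.13-fold. Among the genes of the rule, Cd177, an adhesion partner of endothelial PECAM1 known from neutrophils, went with Ly6c2, at 131 against 7.18 CPM (34 UMIs and 1 UMI) in control and 106 against 27.4 CPM in NK-depleted cells. Fn1, which encodes fibronectin, differed in direction between the libraries, at 3.91-fold (2.88 to 5.43) in the control and 0.667-fold (0.590 to 0.754) in the NK-depleted library.

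**Figure D3:**
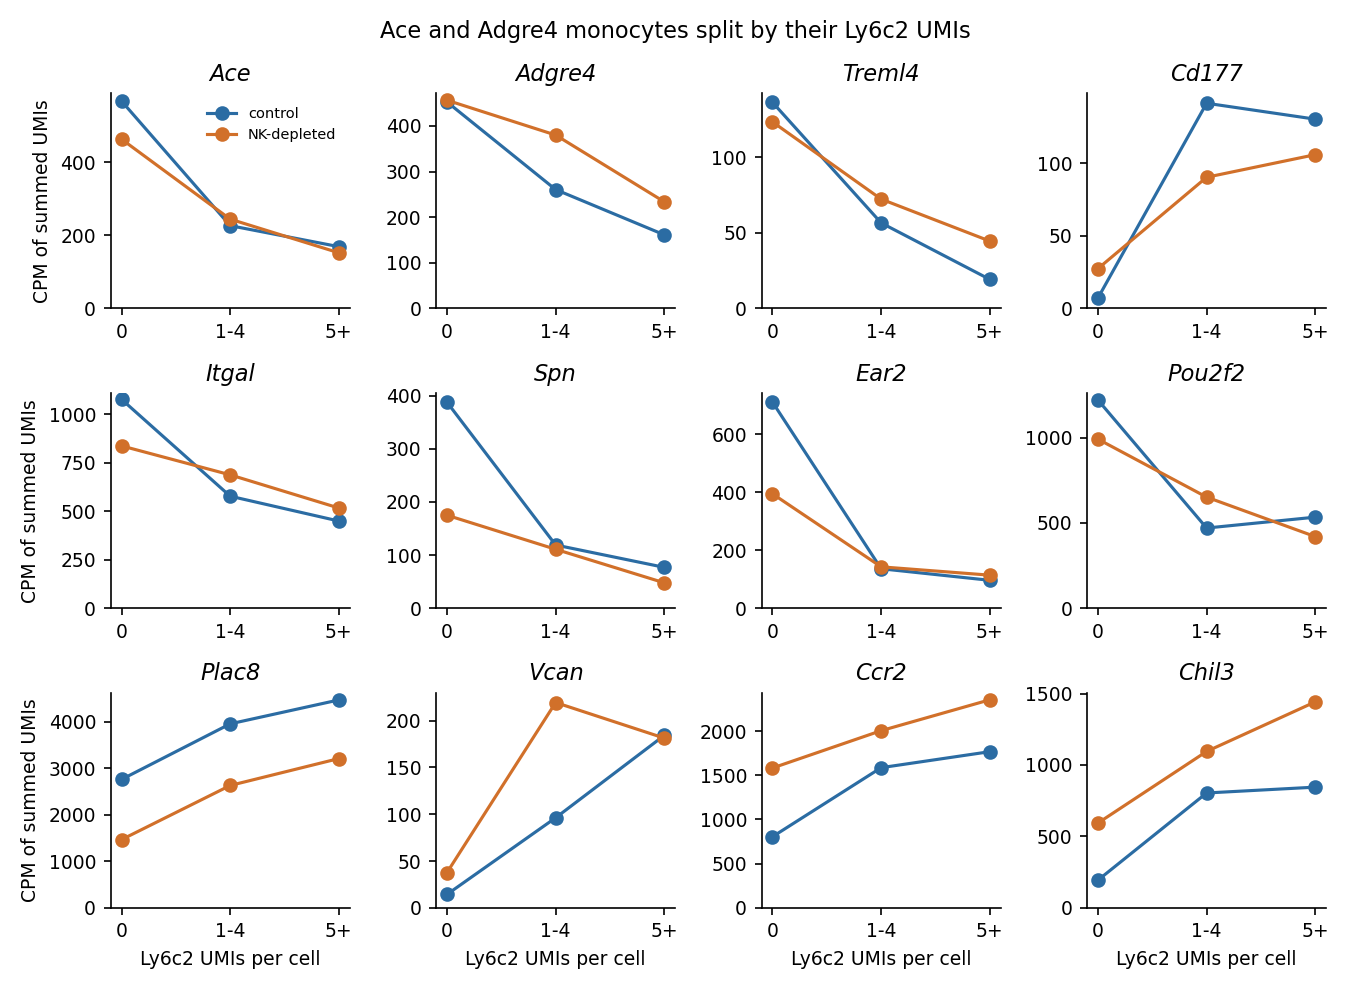
Each panel plots the CPM of the summed UMIs of 1 gene (y axis, from 0) in Ace and Adgre4 monocytes with 0, 1 to 4, or 5 or more UMIs of Ly6c2 (x axis), blue for control and orange for NK-depleted, 1 library each and without intervals. Ace, Adgre4, Treml4, Itgal, Spn, Ear2 and Pou2f2 were highest at 0, and Cd177, Plac8, Vcan, Ccr2 and Chil3 were lowest at 0 in both libraries.

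Cells with Ace alone and cells with Adgre4 alone differed in antigen presentation genes. The split uses genes of the rule, so the values describe the chosen cells. Cells with Adgre4 alone were deeper. Their medians were 5015 UMIs in the control and 5359.5 in the NK-depleted library, against 4409 and 4736 with Ace alone. The part of depth was not tested. H2-Aa, the alpha chain of the MHC class II molecule I-A, was at 367 CPM in cells with Ace alone and 2377 CPM in cells with Adgre4 alone in the control library, a fold of 0.154 (0.112 to 0.208). In the NK-depleted library the values were 548 and 2546 CPM, a fold of 0.215 (0.175 to 0.263). Cd74, the invariant chain, was at 0.209-fold and 0.332-fold, and C1qa at 0.260-fold (0.138 to 0.455) and 0.365-fold (0.238 to 0.540). Ccl2, the chief ligand of CCR2, was likewise lower with Ace alone, at 0.493-fold and 0.316-fold. Spn was 3.45-fold (1.67 to 7.47) and 4.53-fold (2.04 to 10.2) higher with Ace alone, Itgal 2.20-fold and 1.77-fold, and Ly6c2 1.62-fold and 1.35-fold. C1qa moved with the MHC class II genes across this split, and the part of macrophage transcripts in it was not tested.

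Between the libraries, most genes of the monocytes lay close together. Of 7283 genes with at least 20 UMIs, 195 were higher in control past the fold (2.68%) and 281 lower (3.86%), and the median log2 ratio over all genes was -0.05. These shares are the background for the counts of every list between the libraries. The genes of the rule were used to choose the cells, and none of these 8 was past the fold between the libraries. Ifitm6 was at 649 and 492 CPM (a ratio of 1.32) and Adgre4 at 262 and 327 CPM. Ly6c2 was at 1307 (1215 to 1403) and 1116 (1061 to 1173) CPM, a ratio of 1.17 (1.07 to 1.28). This excess in the summed UMIs rested on few cells. With the members richest in Ly6c2 left out of each library (chosen after seeing the data), the ratio was 1.03 (0.932 to 1.14). Cell by cell the direction was the other way, with median Ly6c2 levels of 472 CPM in control and 633 CPM in NK-depleted members. Ly6c2 was detected in 69.3% of control and 75.8% of NK-depleted members.

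Among genes with a sum of 50 or more UMIs, several of the largest ratios rested on few cells. Ccl8, a monocyte chemoattractant, had 57 UMIs in 4 control members and 3 UMIs in 3 NK-depleted members (98.9 and 2.17 CPM). AA467197, whose transcript carries a microRNA and a small mitochondrial protein, was at 78.1 and 13 CPM, the lectin gene Mgl2 at 65.9 and 13.7 CPM, and the macrophage elastase gene Mmp12 at 111 and 39 CPM, and in each of these 5 cells held at least 84.4% of the UMIs in either library. Pf4 was at 172 and 73 CPM (2.35, 1.77 to 3.14), with 80.8% and 85.1% of its UMIs in 5 cells. On the log2 scale its ratio was -0.21 among members without a UMI of C1qa, C1qb or C1qc. Gatm, which makes the precursor of creatine, was at 60.7 and 12.3 CPM (4.95, 2.70 to 9.41), with 77.1% of its control UMIs in 5 cells. Cmc1, a factor in the assembly of cytochrome oxidase, was at 67.7 and 29.6 CPM (2.28, 1.44 to 3.63) in 29 and 40 cells, and 4930455G09Rik, Zbtb38, 1810022K09Rik and Ccpg1 had ratios of 2.24 to 2.32 in 22 to 36 cells.

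Retnla, which encodes a resistin-like protein of alternatively activated macrophages, had the lowest ratio among genes with a sum of 50 or more UMIs, at 62.5 and 374 CPM (0.167, 0.116 to 0.234), and 94.4% and 96.1% of its UMIs were in 5 cells. The rest of the 12 lowest ratios at that sum were of genes detected in many NK-depleted cells. Rbm12, an RNA-binding protein gene, was at 8.68 and 36.1 CPM (0.240, 0.0747 to 0.599) in 5 and 46 cells, and Tmem222, Rnf181, Ipo8, St3gal5, Camk2g, Lmbrd2 and Ppie had ratios of 0.307 to 0.350 in 6 or 7 control and 38 to 49 NK-depleted cells. St3gal5, which makes the ganglioside GM3, was at 15.6 and 46.2 CPM (0.338, 0.148 to 0.682), and was also lower in control among Ly6c2 monocytes (0.352) and C1q macrophages (0.592). Hars, the histidyl-tRNA synthetase, Mnt, a partner of MAX, and Slc25a45, a mitochondrial carrier, had ratios of 0.352, 0.357 and 0.359 in 11 to 14 control and 62 to 82 NK-depleted cells.

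Interferon-induced genes were on the whole somewhat higher in the control monocytes, and few were past the fold. Of the 50 type I interferon genes, 47 had enough counts, 3 were higher past the fold (background 2.68%) and none lower, 35 had a log2 ratio above 0, and the median was 0.27, beside -0.05 over all genes. Isg15, a ubiquitin-like modifier, was at 288 (246 to 335) and 152 (133 to 174) CPM, a ratio of 1.89 (1.53 to 2.33), in 65 of 127 and 86 of 264 cells. Thinned to 2000 UMIs per cell, it was detected in 33.3% and 17.3% of members. Ifit3 and Ifit1, which restrain viral RNA, had ratios of 2.20 (1.32 to 3.65) and 1.60 (1.03 to 2.46). Irf7, the factor that amplifies type I interferon, was at 276 and 188 CPM (1.47, 1.20 to 1.80), under the fold. Rsad2, the antiviral enzyme viperin, was at 262 and 288 CPM (0.911, 0.751 to 1.10), and Oasl2 at 208 and 220 CPM (0.945, 0.759 to 1.17). The same list had a median of 0.36 in Ly6c2 monocytes and -0.10 in C1q macrophages, and of 0.39 in members with Ly6c2 and -0.20 in members without it.

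The IFN-gamma list showed a median of 0.21 over the 27 of 41 genes with enough counts. Of these, 5 were higher past the fold (background 2.68%) and none lower, and the median was -0.060 in members without Ly6c2. Gbp7 and Gbp3, guanylate-binding GTPases that attack intracellular microbes, were at 79.8 and 41.2 CPM (1.94, 1.29 to 2.91) and at 72.9 and 42.6 CPM (1.71, 1.12 to 2.58). Igtp, an immunity-related GTPase, had a ratio of 1.96 (1.18 to 3.23), and Nlrc5, the transactivator of MHC class I genes, 1.84 (1.18 to 2.84). Cxcl10, which draws T and NK cells through CXCR3, was at 98.9 (74.9 to 128) and 27.5 (19.4 to 37.7) CPM, a ratio of 3.60 (2.35 to 5.58). It was detected in only 16 control and 12 NK-depleted members, 5 of which held 77.2% and 68.4% of the UMIs, and its log2 ratio was -0.08 under a stricter filter on cells. Cxcl9, its partner, had 7 and 12 UMIs, too few for a ratio. B2m, the light chain of MHC class I, was at 3306 and 4247 CPM (0.778, 0.739 to 0.820). The summed level of the list, B2m included, was 10439 and 11489 CPM (0.909, 0.882 to 0.936), so sum and median differed in direction. In Ly6c2 monocytes the median was 0.39 and in C1q macrophages 0.19.

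The promoters of these genes carry a letter pattern that interferon-activated factors are known to bind, the interferon-stimulated response element. It was searched on both strands as GAAA, any 2 bases and GAAA again in the 250 bases before the annotated start (RefSeq, GRCm38.p6). The pattern was in 3.06% of 27017 promoters of this length, in 17 of the 39 type I interferon genes that had a window (43.6%) and in 12 of 30 IFN-gamma genes (40%). All 3 type I genes past the fold had it, as did 12 of the 34 not past the fold. Of the IFN-gamma genes it was in 4 of 4 past the fold, and in 5 of 19 not past it. Nlrc5 had no window. A match is a description of letters and not a mapped site, and the lists were compiled as interferon-induced genes. The windows of Isg15, Ifit3, Gbp7 and Cxcl10 are shown, 5′ to 3′ with the pattern in capitals, as examples from each list with the pattern and a ratio past the fold. They lie at chr4:156200819-156201068 on the minus strand for Isg15, chr19:34583279-34583528 on the plus strand for Ifit3, chr3:142530086-142530335 on the plus strand for Gbp7 and chr5:92348890-92349139 on the minus strand for Cxcl10. The 3 matches of Isg15 overlap in 1 run of capitals, and a match on the opposite strand starts with TTTC.
Isg15: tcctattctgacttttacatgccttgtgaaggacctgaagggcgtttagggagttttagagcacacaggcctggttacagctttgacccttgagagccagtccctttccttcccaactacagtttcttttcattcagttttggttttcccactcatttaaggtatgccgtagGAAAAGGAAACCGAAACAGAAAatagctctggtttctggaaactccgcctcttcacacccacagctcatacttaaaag
Ifit3: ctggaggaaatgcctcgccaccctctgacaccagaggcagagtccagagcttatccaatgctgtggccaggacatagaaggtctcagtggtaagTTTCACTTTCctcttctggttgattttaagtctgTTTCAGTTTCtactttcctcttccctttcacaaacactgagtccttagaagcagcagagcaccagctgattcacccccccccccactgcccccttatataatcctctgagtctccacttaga
Gbp7: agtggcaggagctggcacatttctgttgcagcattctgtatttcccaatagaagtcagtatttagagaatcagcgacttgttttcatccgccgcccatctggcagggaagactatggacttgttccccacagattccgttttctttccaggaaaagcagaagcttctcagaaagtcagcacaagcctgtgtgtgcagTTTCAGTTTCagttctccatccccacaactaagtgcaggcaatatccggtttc
Cxcl10: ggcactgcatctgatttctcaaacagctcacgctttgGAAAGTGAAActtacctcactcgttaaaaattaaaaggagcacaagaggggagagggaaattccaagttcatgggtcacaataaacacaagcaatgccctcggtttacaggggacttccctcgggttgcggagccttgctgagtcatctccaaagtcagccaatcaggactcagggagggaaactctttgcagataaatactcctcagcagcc

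MHC class II genes, which present peptides to CD4+ T cells, had the same summed level in both libraries, 9273 and 9273 CPM, with an interval of the ratio from 0.968 to 1.03. The median log2 ratio of the 9 genes with enough counts was 0.07. Cd74 was at 2799 and 2247 CPM (1.25, 1.17 to 1.32) and H2-Aa at 1437 and 1838 CPM (0.782, 0.722 to 0.846), and only H2-DMb2, an editor of peptide loading, was past the fold, with 14 and 12 UMIs (2.80, 1.20 to 6.63). The Ly6c2 states had opposite ratios. In members without Ly6c2, Cd74 was at 1329 CPM in the control and 3784 CPM in the NK-depleted library, H2-Aa at 531 (417 to 667) and 3204 (3002 to 3417) CPM, and H2-Ab1 at 603 and 2793 CPM. In members with Ly6c2, Cd74 was at 3267 and 1838 CPM, H2-Aa at 1725 (1604 to 1853) and 1473 (1402 to 1547) CPM, and H2-Ab1 at 1560 and 1164 CPM. The medians of the list were -1.77 without Ly6c2 and 0.38 with it. The difference between these states was not tested. Of the members without Ly6c2, 6 of 39 control cells (15.4%) and 23 of 64 NK-depleted cells (35.9%) held 10 or more UMIs of Cd74, and 5 cells held 73.5% and 48% of the UMIs. C1q genes were detected in 7 of 39 and 17 of 64 of them and Itgax, an integrin of dendritic cells, in 2 and 13, and the part of such cells in the result was not tested.

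**Figure D4:**
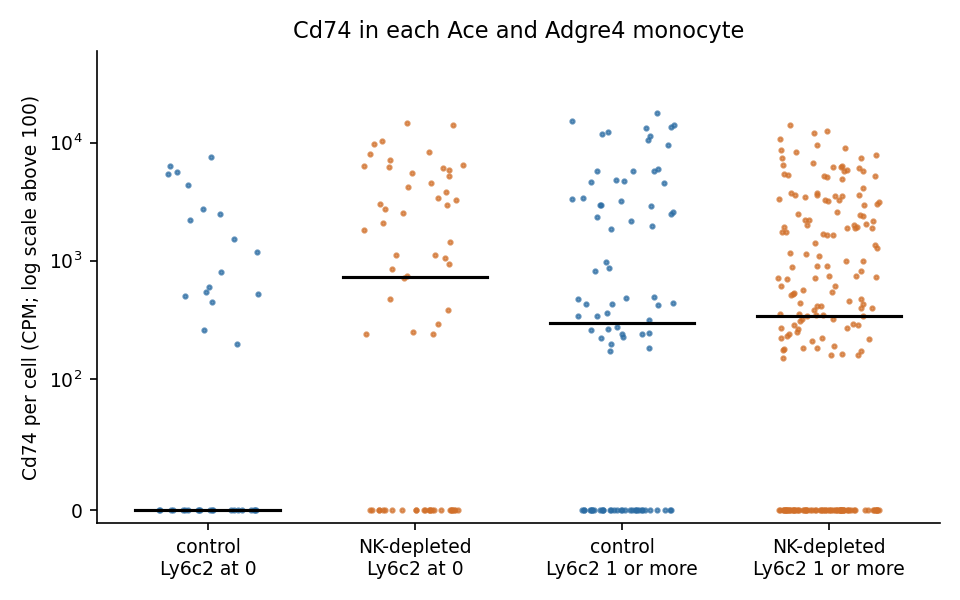
Each point is 1 Ace and Adgre4 monocyte, with its Cd74 in CPM of its own UMIs (y axis, linear up to 100 and logarithmic above), grouped by library and by Ly6c2 at 0 or at 1 or more UMIs (x axis), and black lines are medians over cells. Points are cells of 1 library and not replicates, and the control cells at 0 of Ly6c2 have their median at 0, with 18 of 39 holding a UMI.

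Secreted factors differed gene by gene. Of 21 chemokine and cytokine genes with enough counts, 2 were higher past the fold (background 2.68%) and 3 lower (background 3.86%), with a median of 0.11 that was below 0 under several alternatives. Ccl2 was at 370 (322 to 423) and 672 (629 to 716) CPM, a ratio of 0.550 (0.472 to 0.639), in 33 and 115 cells, and was 0.798 in Ly6c2 monocytes and 0.631 in C1q macrophages. Il10, an inhibitory cytokine, had 1 UMI in the control and 35 in the NK-depleted members, all in 5 cells, a ratio of 0.0686 (0.00169 to 0.408). Il6, an inflammatory cytokine, had 1 and 19 UMIs in 1 and 13 cells, a ratio of 0.126 (0.00304 to 0.795). Tnf, another inflammatory cytokine, was at 62.5 and 36.1 CPM (1.73, 1.09 to 2.71) in 17 and 29 cells. Il1b, the abundant inflammasome cytokine, was at 2736 (2603 to 2875) and 2534 (2450 to 2619) CPM (1.08, 1.02 to 1.15), and Vegfa, the angiogenic factor, at 57.3 and 59.2 CPM (0.967, 0.625 to 1.46).

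Few genes of monocyte identity were past the fold between the libraries, where the background was 2.68% higher and 3.86% lower. The median log2 ratios were -0.07 for the classical and -0.05 for the nonclassical genes, beside -0.05 over all genes. Of 15 classical monocyte genes, none was higher and 2 were lower past the fold, Chil3 at 675 and 1152 CPM (0.586, 0.523 to 0.655) and F13a1, the coagulation factor XIII subunit, at 495 and 802 CPM (0.617, 0.540 to 0.703). Ccr2 was at 1478 and 2079 CPM (0.711, 0.658 to 0.768), and Plac8 at 3896 and 2655 CPM (1.47, 1.39 to 1.55), neither past the fold. Of 18 nonclassical genes, Spn was higher, at 165 (133 to 202) and 94.6 (79.1 to 112) CPM (1.74, 1.32 to 2.29), and Clec4a1, a C-type lectin receptor, lower, at 429 and 712 CPM (0.602, 0.521 to 0.692). Clec4a1 was likewise lower in control Ly6c2 monocytes (0.595) and Chil3 in Ly6c2 monocytes (0.447) and C1q macrophages (0.324). Thinned to 2000 UMIs before the rule, which keeps 157 members, the log2 ratios were 0.10 for Chil3, -0.04 for Spn and 0.11 for Nr4a2. Cx3cr1 was at 344 and 374 CPM (0.918, 0.775 to 1.08). S100a8, a calprotectin chain of neutrophils, had 26 and 5 UMIs, all in 5 control and 4 NK-depleted cells.

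Among 22 transcription factors, 4 were lower in control past the fold (background 3.86%) and none higher, with a median of -0.08. Nr4a2, an immediate early nuclear receptor, was at 307 (264 to 356) and 517 (479 to 556) CPM (0.595, 0.502 to 0.702), Maf, a factor of macrophage differentiation, at 295 and 454 CPM (0.650, 0.546 to 0.771), Bcl6, a repressor of inflammatory genes, at 76.3 and 119 CPM (0.641, 0.448 to 0.898), and the oxysterol receptor Nr1h3 had 3 and 31 UMIs (0.232, 0.0455 to 0.745). Nr4a1, on which nonclassical monocytes depend, was at 1294 and 1682 CPM (0.770, 0.708 to 0.836), and was 0.478 in Ly6c2 monocytes and 0.547 in C1q macrophages. Immediate early and heat shock genes, which also respond to tissue dissociation, had none of 21 past the fold, but 9 had an interval below 1 and 2 above, and their summed level was 19393 and 22953 CPM (0.845, 0.827 to 0.863). Dusp1, a phosphatase that ends MAP kinase signaling, was at 2908 and 4355 CPM (0.668, 0.632 to 0.705), and Egr1, an early growth response factor, at 541 and 373 CPM (1.45, 1.26 to 1.67). Of the 27 TNF and NF-kB genes, 1 was higher and 2 lower, Tnfaip3, which encodes the inhibitor A20, at 163 and 285 CPM (0.573, 0.453 to 0.719) and Clec4e, the receptor Mincle, at 248 and 426 CPM (0.583, 0.482 to 0.701).

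Hypoxia and glycolysis genes had medians above that of all genes. Of 13 hypoxia genes with enough counts, 4 were higher past the fold (background 2.68%) and none lower, with a median of 0.47, although the median was -0.02 with Adgre4 left out of the rule and -0.10 after thinning. Kdm3a, a histone demethylase, had a ratio of 2.17 (1.25 to 3.74), Ero1l, an oxidase of the endoplasmic reticulum, 2.02 (1.35 to 3.02), Slc2a1, the glucose transporter GLUT1, 1.84 (1.13 to 2.97), and Bnip3, a mitophagy receptor, 1.69 (1.12 to 2.54). Of 15 glycolysis genes, 14 had a log2 ratio above 0, 3 were higher past the fold (background 2.68%), and the median was 0.24, although the median of the glycolysis genes was -0.23 after thinning. Eno1, an enolase, was at 139 (110 to 173) and 69.4 (56.2 to 84.7) CPM (2.00, 1.47 to 2.72), in 53 and 68 cells, and Gapdh at 696 and 571 CPM (1.22, 1.08 to 1.37). The 61 oxidative phosphorylation genes had a median of 0.17, with 4 higher (background 2.68%) and 1 lower (background 3.86%), Uqcrh, a subunit of complex III, being at 859 and 566 CPM (1.52, 1.35 to 1.70). Both other cell sets showed the same direction, with hypoxia medians of 0.67 in Ly6c2 monocytes and 0.35 in C1q macrophages and glycolysis medians of 0.54 and 0.35.

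The remaining lists had few genes past the fold, where the background was 2.68% higher and 3.86% lower. These lists, like those of similar size above, are too small for a difference to be read from their counts beside those shares. Of 12 prostaglandin and leukotriene genes none was higher, and Lta4h, which makes leukotriene B4, was lower at 33 and 65.7 CPM (0.502, 0.289 to 0.829). Ptgs2, the inducible cyclooxygenase, was at 394 (344 to 449) and 378 (346 to 412) CPM (1.04, 0.888 to 1.22), Ptger4, a receptor of prostaglandin E2, at 102 and 96.8 CPM, and Alox5ap, the 5-lipoxygenase partner, at 855 and 863 CPM. None of 5 Fc receptor genes and none of 11 oxidant and antimicrobial genes was past the fold, and Cybb, the catalytic subunit of the phagocyte oxidase, was at 2202 and 2216 CPM. Of 20 adhesion and migration genes, Spn and S1pr5 were higher, the latter with 15 and 14 UMIs (2.57, 1.16 to 5.75), and none lower. Of 12 survival genes only Bcl2a1d was higher, at 43.4 and 22.4 CPM (1.94, 1.10 to 3.39), and of 9 checkpoint and costimulation genes only Havcr2, which encodes TIM-3, at 76.3 and 44.8 CPM (1.70, 1.13 to 2.55). Cd274, which encodes PD-L1, was at 34.7 and 33.2 CPM (1.04, 0.585 to 1.80). Only 2 of 16 cell cycle genes reached 20 UMIs, and Mki67, a mark of dividing cells, had 2 and 3 UMIs.

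**Figure D5:**
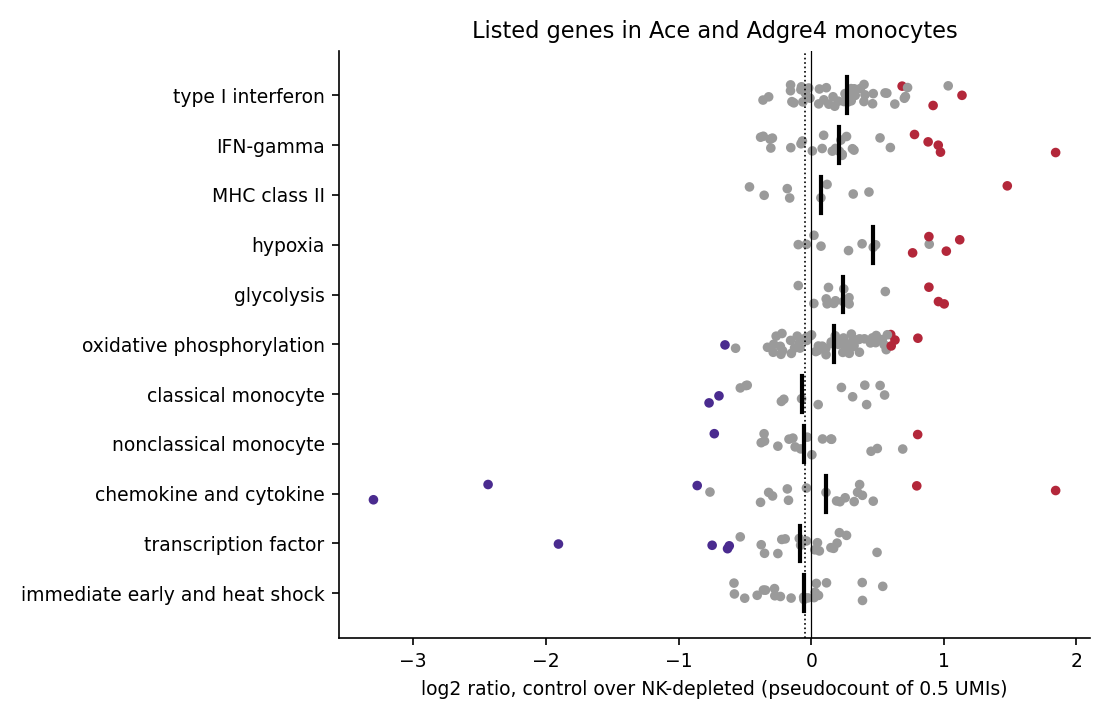
Each point is a listed gene with at least 20 UMIs in Ace and Adgre4 monocytes, placed by its log2 ratio of control over NK-depleted (x axis) within its list (y axis, spread vertically for legibility); red marks genes higher and purple genes lower past the fold, black bars are list medians and the dotted line is the median of all genes. The medians of the hypoxia (0.47), type I interferon (0.27), glycolysis (0.24) and IFN-gamma (0.21) lists lay right of it.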

How the data were processed

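Per the labels and the methods, sorted live CD45+ cells of pooled tumors were run on the 10x Chromium 3′ v3 platform, 1 library per group. The authors deposited, for each library, a filtered matrix of UMI counts per gene and cell; the matrix headers name Cell Ranger 3.0.2, while the methods give a later release, and the submitters' processing notes name mm10. A deposited table of log-scale normalized values was not used. The 2 matrices hold 11651 called cells, the number the study gives. The limits in the methods (UMIs from 500 to 15000, genes from 200 to 4000, mitochondrial share up to 10%) left 9798. Scrublet (scanpy 1.11.5, expected rate 5%) called 0 of 5292 and 3 of 4506 cells, none of them members, which is too few for the caller to have worked, so doublets were left in.

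UMIs were summed over the members of each library with Python 3.11.15, numpy 2.4.6 and scipy 1.17.1. Levels had exact Poisson intervals, shares Clopper-Pearson intervals and ratios exact conditional binomial intervals at 95%, and log2 ratios used a pseudocount of 0.5 UMIs. The interval code was checked on simulated counts. With 1 library per group no test was made. The members, gene lists and comparison sets were chosen with earlier results of these data known. Genes named first between the libraries were the 12 highest and 12 lowest ratios past the fold among genes with a sum of 50 UMIs or more, and the other genes named come from the lists. Thinning drew 2000 UMIs per cell and left out shallower cells. Alternatives covered the rule, the cell filter, depth, scaling, count minimum and the Ly6c2 states, and those added after seeing the data leave out members with C1q, leave out the 5 cells with most UMIs of a gene, or weight the Ly6c2 states equally. Promoter windows come from RefSeq (GRCm38.p6, the same assembly as mm10).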

Additional observations from a re-analysis of the deposited data

Results flagged for a closer look

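Among NK-depleted cells left out for too many UMIs or genes, which entered no comparison, 9 of 353 met the rule, against 1 of 212 in the control library. The median log2 ratio of control over NK-depleted for the MHC class II list was 0.38 in members with Ly6c2 and -1.77 in members without it, and the difference was not tested. For the type I interferon list the medians were 0.39 in members with Ly6c2 and -0.20 in members without it, and this difference was not tested either.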

How the results depend on the processing

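The ratio of the member shares lay between 0.364 and 0.497 under all settings tried. Genes higher past the fold numbered 195, and 316 with 2 or more of the 8 rule genes, 124 with 4 or more, 73 after thinning to 2000 UMIs and 127 at a minimum of 50 UMIs. Genes lower numbered 281, and 173 with Adgre4 left out of the rule, 563 without upper limits on cells, 113 after thinning and 163 in members without Ly6c2. In members without Ly6c2 the type I interferon median was -0.20 and that of the IFN-gamma list -0.060, and the MHC class II median was -0.43 after thinning, 0.38 with Ly6c2, -1.77 without it and -0.29 with the Ly6c2 states at equal weight (chosen after seeing the data). Among the other genes past the fold and the other lists whose middle gene had an interval without 0, directions turned as follows, on the log2 scale. Over the chemokine and cytokine genes the median was -0.19 with 2 or more rule genes, -0.064 under the stricter filter, -0.087 without upper limits, -0.059 by the mean CPM of cells, -0.083 without Ly6c2 and -0.048 with the states at equal weight. The oxidant and antimicrobial median was -0.0056 with 2 or more rule genes. The hypoxia median was -0.023 with Adgre4 left out and -0.10 after thinning, and that of the glycolysis genes -0.23 after thinning. Lists whose middle gene had an interval that held 0 also changed sign under some settings. AA467197 was at -0.88 and Mgl2 at -2.21 without Ly6c2, Cxcl10 at -0.077 under the stricter filter, and Pf4 at -1.05 with 4 or more rule genes and -0.21 without C1q (chosen after seeing the data). Chil3 was at 0.10, Nr4a2 at 0.11 and Spn at -0.042 after thinning. Fewer UMIs and cells enter the thinned, stricter and narrower settings, and otherwise the cause was not tested. Of the remaining values of lists and genes, 1122 stayed within the counting interval of the value reported (for a list, that of its middle gene) and 157 moved beyond it. No paired analysis was possible because each group is 1 library. Intervals cover the counting of UMIs or cells and not the spread between mice or libraries.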
